A study of Oryza sativa with 6 samples.

Results

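Small heat shock proteins are chaperones that share an alpha-crystallin domain and bind unfolding proteins so that these can be refolded later. Most of their genes in plants are known to be weakly active in unstressed leaves and strongly induced by heat through heat shock factors. Cells hold several kinds of them: classes I and II act in the cytosol, and other members are sent to mitochondria, plastids, peroxisomes or the endoplasmic reticulum. Here 10 rice small heat shock genes were followed, each through 1 probe set chosen by its identifier. The array has 57258 non-control probe sets. The annotation pairs 22436 probe sets with 1 gene, which gives 17905 genes. The 10 genes are HSP16.9A, HSP16.9B, HSP17.4, HSP17.7, hsp17.9 (also called HSP17.9A) and HSP18.1 of class I, HSP18.0 of class II, HSP24.1 and HSP26.2 of the mitochondrial kind, and HSP17.9B, which is not assigned to a class here.

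The arrays were hybridised with RNA of whole seedlings of the japonica type, 3 weeks old, grown without a stated heat treatment. The wild type gave 3 arrays and Epi-df gave 3, each named a biological replicate, and nothing says how many plants an array stands for, so the tests measure the spread between these arrays. The line Epi-df is dwarfed and is known to carry an epigenetic allele of FIE1, a Polycomb group gene, and both groups were soaked for 3 days and raised in the same way. The comparison asks which transcripts differ between the lines, here among chaperone genes.

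The arrays were alike in level, with median intensities of 108.1 to 114.5, and their number limits the precision of every value. The annotation used here pairs no probe set with FIE1 by that name, so the line labels were not checked by it. Of 4 genes of green tissue none was called and 2 were higher on every Epi-df array, those of the chlorophyll-binding proteins LHCP and CAB2R. Over all tested probe sets 0.614% were called and 9.82% were higher on every Epi-df array than on every wild type one. OsrbcS and rca had overlapping groups, with log2 changes of -0.02 ± 0.05 and -0.09 ± 0.14 (limma adjusted p = 0.93 and 0.849). LHCP lay between 5390 and 6635 in wild type and between 8245 and 11068 in Epi-df (log2 change 0.57 ± 0.13, limma adjusted p = 0.0873). The 2 probe sets of CAB2R differed between the lines by 0.28 ± 0.06 and 0.64 ± 0.11 on the log2 scale (limma adjusted p = 0.0749 and 0.0308). NAS1 and NAS2, genes of iron uptake, were high on the array of Epi-df replicate 3 alone (1069 and 688.1, against at most 48.9 and 67.2 elsewhere). IRT1, another root marker, was dim and not tested, and read 81.9 on that array and 66.1 to 80.0 elsewhere. NAS1 and NAS2 are on a list of root genes, of which 6 were tested, none was called and 1 had groups apart. Over all tested probe sets 0.614% were called and 19.6% had groups apart. The root gene with groups apart was Lsi1, higher in Epi-df (log2 change 0.44 ± 0.14, limma adjusted p = 0.184). OSH1, a meristem gene, was high on the array of Epi-df replicate 1 alone, at 268.2 against at most 30.2. OSH71, another meristem gene, was higher on every Epi-df array, at 233.4, 134.6 and 197.0 against 28.2, 25.9 and 90.6 (log2 change 1.78 ± 0.36, limma adjusted p = 0.0614). OsPCNA, the other tested meristem gene, had overlapping groups (log2 change 0.23 ± 0.15, limma adjusted p = 0.579). The part of these tissue markers in the values below was not tested.

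None of the 10 small heat shock genes was called in Epi-df against wild type at an adjusted p under 0.05 and at least 2-fold, the thresholds named in the series' design (limma, two-sided, Benjamini-Hochberg over 34355 tested probe sets). Over all tested probe sets 0.614% were called, 61 higher and 150 lower. Without the fold threshold the count of members was still 0, against 1.79% of all tested probe sets. At an unadjusted p under 0.05 there were 5 members, against 14.4% of all tested probe sets. All 10 had a mean above 81.09, the intensity at which the filter on dim probe sets lay, so each one was tested. In the class I group 4 of 6 genes were higher in Epi-df, HSP18.0 and both mitochondrial genes were higher, and HSP17.9B was lower. The 95% intervals of all 10 changes lay between -0.56 and 0.75 on the log2(intensity + 16) scale. On these probe sets each one thus left out a 2-fold change in either direction. The same holds for 95.4% of all tested probe sets. It does not hold for a second probe set of HSP18.1, whose interval ran from 0.32 to 1.03.

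**Figure D1:**
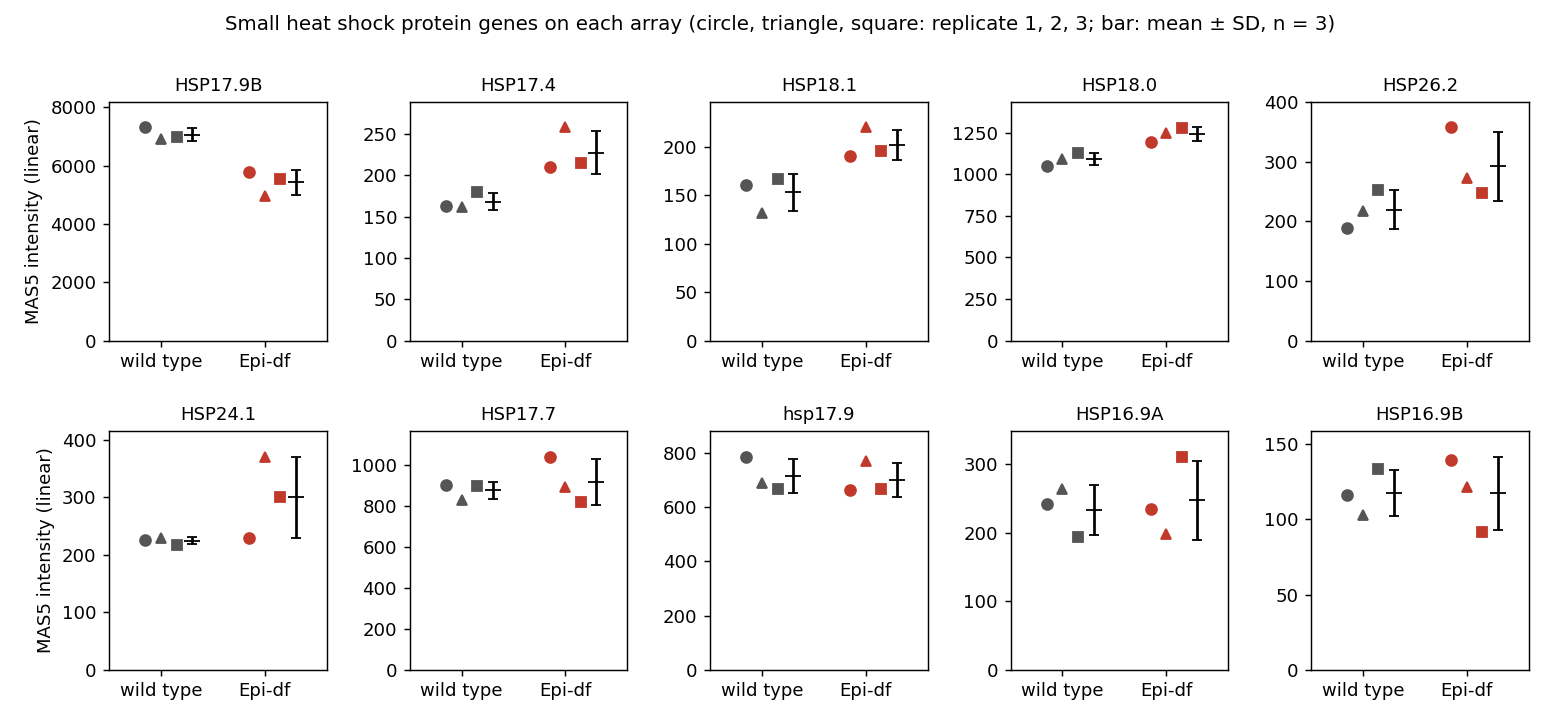
MAS5 intensity (linear scale from 0, y axis) of each small heat shock gene on the 3 wild type arrays (grey) and the 3 Epi-df arrays (red), with marker shapes for replicates 1, 2 and 3 and black bars for the mean ± SD (n = 3). The groups stand apart for HSP17.9B, HSP17.4, HSP18.1 and HSP18.0 and overlap for the other 6 genes.

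HSP17.9B (LOC4325695) had the lowest adjusted p of the members and was the 1 gene clearly lower in Epi-df. Its intensity was 7307, 6900.0 and 6965 on the wild type arrays. On the Epi-df arrays it was 5784, 4952 and 5556. The lowest wild type array thus lay above the highest Epi-df array, and the lowest value of all was that of Epi-df replicate 2. The means were 7057 ± 219 in wild type and 5431 ± 430 in Epi-df (SD, n = 3 in each group), a log2 change of -0.38 ± 0.08 (SE, 95% interval -0.56 to -0.20) that missed the threshold (limma adjusted p = 0.0598). When single arrays were left out the change stayed between -0.43 and -0.31, with limma adjusted p values of 0.0747 to 0.231.

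HSP17.4 (LOC4332360), a class I gene, was higher in Epi-df. Its wild type arrays read 162.5, 162.0 and 180.2. Its Epi-df arrays read 209.9, 257.8 and 214.5. The groups did not overlap, and Epi-df replicate 2 was the highest. The log2 change was 0.40 ± 0.10 (95% interval 0.16 to 0.64), larger than the change of 91.9% of all tested probe sets in absolute size, with a limma adjusted p of 0.118. It was 0.31 without Epi-df replicate 2 and at most 0.45 without any other single array.

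HSP18.1 (LOC4332361), another class I gene, behaved on the arrays much like HSP17.4. It read 160.7, 131.7 and 167.2 in wild type. In Epi-df it read 190.9, 220.3 and 195.8. The groups did not overlap, with wild type replicate 2 lowest and Epi-df replicate 2 highest, as the values of HSP17.4 also were. The log2 change was 0.37 ± 0.11 (95% interval 0.11 to 0.63, limma adjusted p = 0.164). A second probe set of HSP18.1, without the suffix _x_at that marks probes able to bind other transcripts, gave 81.0, 75.1 and 120.4 in wild type. In Epi-df it gave 151.0, 166.6 and 145.4. Its groups did not overlap either, and its log2 change was larger, 0.68 ± 0.15 (95% interval 0.32 to 1.03, limma adjusted p = 0.0838). The 2 probe sets thus share the direction and differ in size.

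HSP18.0 (LOC4325342), the class II gene, showed a small difference with little spread. Its wild type values were 1054, 1091 and 1130 on replicates 1 to 3 (means 1092 ± 37.9 and 1242 ± 41.1 in the 2 groups). Its Epi-df values were 1197, 1250.1 and 1278. No Epi-df array was as low as a wild type one. The log2 change was 0.18 ± 0.07 (95% interval 0.01 to 0.35, limma adjusted p = 0.308). HSP18.0 has 2 further probe sets, whose groups did not overlap and whose log2 changes of 0.10 ± 0.08 and 0.23 ± 0.09 had the same sign (limma adjusted p = 0.674 and 0.330). The former was 0.05 when Epi-df replicate 1 was left out, and the latter 0.15 when wild type replicate 2 was.

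The groups did not overlap in these 4 of 10 members, 3 higher and 1 lower in Epi-df. Over all tested probe sets 19.6% had groups that did not overlap, 9.82% higher and 9.79% lower.

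The mitochondrial pair had higher means in Epi-df, but in each gene 1 array carried much of it. HSP24.1 (LOC4330786) was even in wild type, at 226.5, 230.1 and 217.5. In Epi-df it ran from 228.9 in replicate 1 to 370.2 in replicate 2 and 301.2 in replicate 3. Epi-df replicate 1 lay within the wild type range, so the groups overlapped. The log2 change of HSP24.1 was 0.37 ± 0.16 (limma adjusted p = 0.349). Leaving out Epi-df replicate 2 made it 0.21, and leaving out Epi-df replicate 1 made it 0.54.

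HSP26.2 (LOC4340508) read 188.2, 217.5 and 253.2 in wild type. In Epi-df it read 357.9, 273.3 and 247.5. Here replicate 1 was the highest Epi-df array and replicate 3 lay within the wild type range, which is another order than in HSP24.1. The log2 change was 0.38 ± 0.16 (limma adjusted p = 0.323). Leaving out Epi-df replicate 1 made it 0.24. The HSP26.2 probe set carries the suffix _s_at, which marks probes shared by several transcripts, so its values may include related genes.

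The remaining 4 genes, all of class I, had changes no larger than the spread within groups. Each of them took the other sign when some single arrays were left out. HSP17.7 (LOC4332363) read 904.6, 828.9 and 899.6 in wild type and 1041, 891.7 and 820.4 in Epi-df (log2 change 0.06 ± 0.10, 95% interval -0.19 to 0.30, limma adjusted p = 0.882). Its highest and its lowest array were both Epi-df arrays. A second probe set of HSP17.7 was dim, at 25.9 to 34.6 over the 6 arrays, and was not tested. The gene hsp17.9 (LOC4332357) read 786.1, 687.9 and 668.2 in wild type and 661.6, 771.6 and 666.4 in Epi-df (log2 change -0.03 ± 0.10, 95% interval -0.27 to 0.21, limma adjusted p = 0.944). Its groups overlapped, with 1 high array in each.

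HSP16.9A (LOC4325697) and HSP16.9B (LOC4325698), which stand side by side in the genome, deviated in opposite directions from array to array. HSP16.9A read 242.0, 263.9 and 193.1 in wild type and 233.9, 197.6 and 310.6 in Epi-df (log2 change 0.07 ± 0.18, 95% interval -0.34 to 0.48, limma adjusted p = 0.919). HSP16.9B read 116.0, 103.0 and 133.5 in wild type and 139.5, 121.5 and 91.5 in Epi-df (log2 change -0.01 ± 0.15, 95% interval -0.36 to 0.34, limma adjusted p = 0.986). Epi-df replicate 3 was the highest array for HSP16.9A and the lowest for HSP16.9B. Their spread within groups was 0.27 and 0.22 (pooled SD, log2), among the wider ones of the members, whose median was 0.13 against 0.12 over all tested probe sets. The gene table lists the name HSP16.9B also among the synonyms of the HSP16.9A locus, so names of these near copies are less certain than those of the other members.

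**Figure D2:**
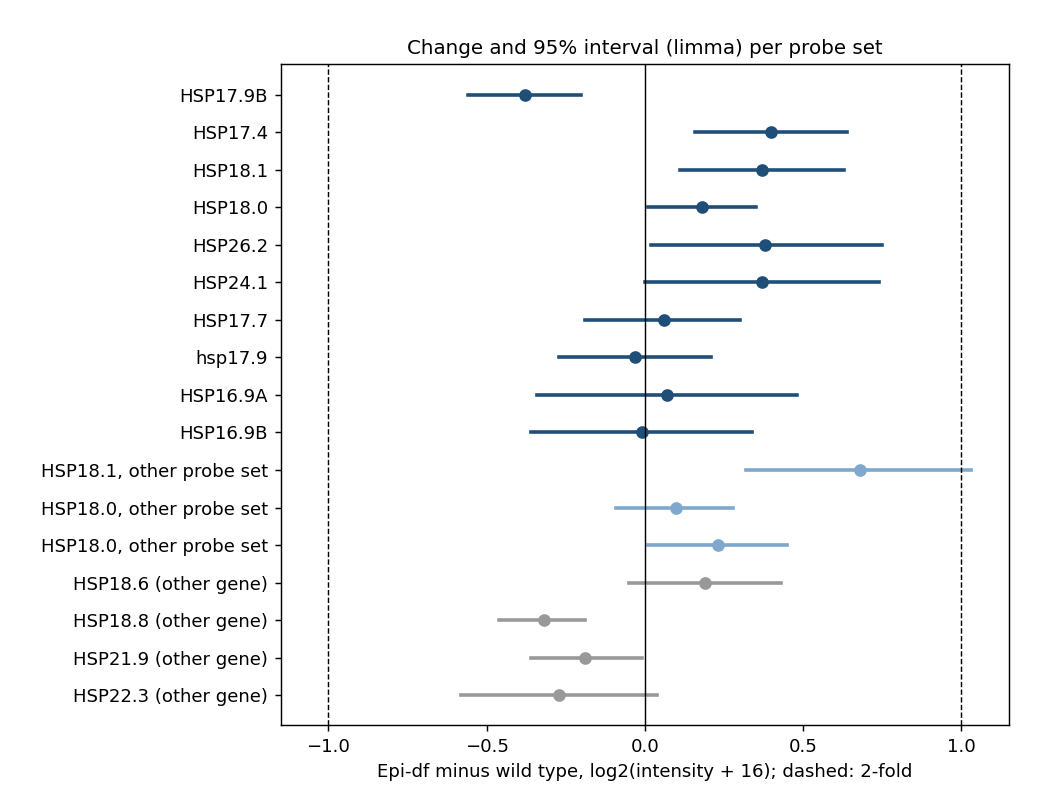
Log2 change of Epi-df minus wild type on the log2(intensity + 16) scale (x axis, dots) with its 95% interval (lines) for the 10 small heat shock genes (dark blue), further probe sets of them (light blue) and other tested small heat shock genes (grey), with 2-fold marked by dashed lines. HSP17.9B at -0.38 and HSP18.8 at -0.32 lie left of 0, HSP17.4 at 0.40 and HSP18.1 at 0.37 right of it, and the second probe set of HSP18.1 has the largest change, 0.68.

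The members thus did not move as 1 block. Their log2 changes ran from -0.38 to 0.40, with 7 higher and 3 lower, a median change of 0.13 and a median absolute change of 0.28. The median was 0.06 without the probe sets of the suffixes _s_at and _x_at. Over all tested probe sets the median change was 0.01 and the median absolute change 0.09, and 53.9% were higher. In 6 of the 10 members the absolute change was larger than the pooled SD within groups, against 40.3% of all tested probe sets. The mean profile of the 10 genes, each centred on its own mean over the 6 arrays, ranged from -0.11 on wild type replicate 2 to 0.10 on Epi-df replicate 2. No array was the highest for more than 3 members, and the highest array was an Epi-df one in 8 members and wild type replicate 1 in 2. The 8 include HSP16.9A, HSP16.9B and HSP17.7, whose changes were no larger than the spread within groups. The like share over all tested probe sets was not computed.

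The 6 class I genes and HSP17.9B lie in 2 groups of neighbours. In the gene order of the RefSeq table, HSP17.4, HSP18.1 and HSP17.7 follow each other directly, and hsp17.9 precedes HSP17.4 with 4 protein-coding genes between them. In the other group HSP17.9B, HSP16.9C, HSP16.9A and HSP16.9B follow each other, and no probe set is paired with HSP16.9C in the table used here. Within the first group, HSP17.4 and HSP18.1 were the closest of all 45 pairs of members over the 6 arrays, with a root mean square difference of 0.082 between their centred log2 profiles, against a median of 0.239 over the pairs. Their direct neighbour HSP17.7 differed from HSP18.1 by 0.213. Both distances rest on the _x_at probe set of HSP18.1. Its other probe set was not compared with the members, so the rank may not hold for it. The second closest pair, HSP16.9B and HSP17.7 (0.105), is not made of neighbours, and the third, HSP17.4 and HSP18.0 (0.139), is made of different classes. The neighbours HSP16.9A and HSP16.9B ranked 40 of 45, at 0.386, so being next to each other did not go with a like profile in every case. Least alike were HSP17.9B and HSP24.1, at 0.454. These distances describe 6 arrays, and whether probes of related genes share transcripts was not tested.

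**Figure D3:**
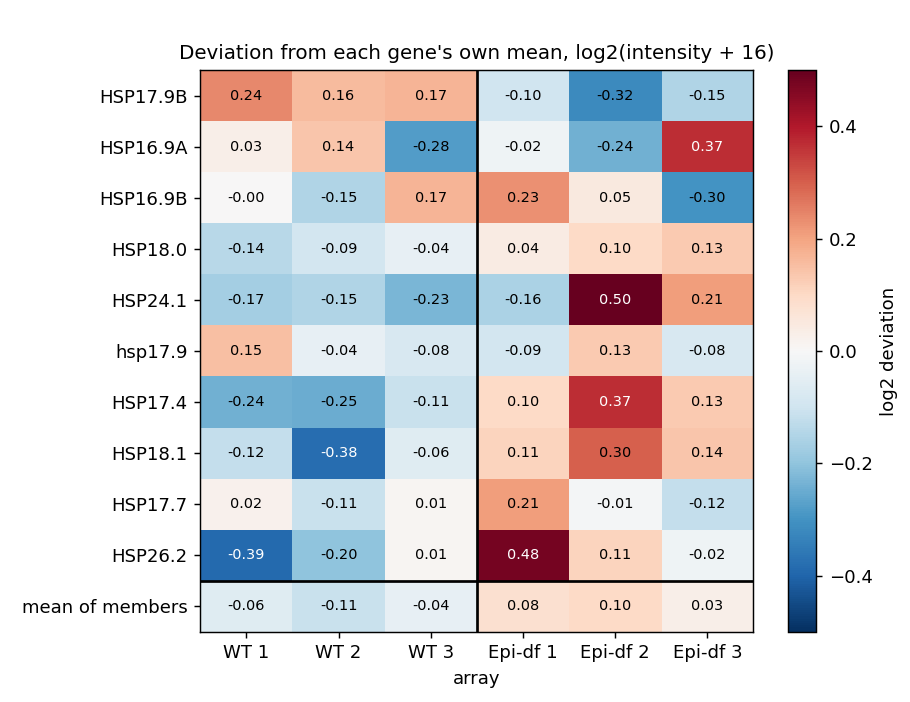
Deviation of each small heat shock gene from its own mean over the 6 arrays (log2(intensity + 16), colour and printed value), with arrays in columns and genes in rows, the mean of the 10 genes in the bottom row and a black line between wild type and Epi-df. HSP17.4 and HSP18.1 share low wild type and high Epi-df values, HSP17.9B shows the opposite, and HSP16.9A and HSP16.9B differ in sign on the array of Epi-df replicate 3 (0.37 and -0.30).

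The named genes nearest to the mean profile, among 2690 named and tested probe sets, were eIF-4G, a translation initiation factor gene (root mean square difference 0.024), BIO1 (0.026), AARE2 (0.026), OsSPO11B (0.026) and GATA17 (0.028). None of them was called, and their log2 changes lay between 0.10 and 0.16. The mean profile is itself nearly flat, with a difference of 0.14 between the groups, so genes with small changes lie close to it.

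Small heat shock genes outside the 10 were fewer and mostly dim. Of 9 further genes named on the array 4 were tested and 0 were called, against 0.614% of all tested probe sets. HSP18.8 read 8672, 9218 and 8817 in wild type. In Epi-df it read 7008, 7292 and 7055. It was lower on every Epi-df array, by a log2 change of -0.32 ± 0.06, with a limma adjusted p of 0.0433 and a change under 2-fold. That p lay between 0.0651 and 0.175 when single arrays were left out. HSP17.9B and HSP18.8 thus had changes of like size and sign. The HSP18.8 probe set carries the suffix _x_at, so its values may include related genes, which was not tested.

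Of the others tested, HSP21.9 and HSP22.3 had log2 changes of -0.19 ± 0.07 and -0.27 ± 0.13, and HSP18.6, a class III gene, one of 0.19 ± 0.10 (limma adjusted p = 0.311, 0.423 and 0.488). The HSP21.9 value is that of an _x_at probe set, and its dimmer probe set, not tested, had overlapping groups with means of 70.1 in wild type and 73.2 in Epi-df. The change of HSP22.3 was -0.15 when Epi-df replicate 3 was left out. HSP16.0, HSP16.6, HSP17.8, HSP23.2 and HSP26.7 lay under the filter. HSP16.0, known for a peroxisomal protein, read 34.8, 39.2 and 41.4 in wild type and 55.8, 67.3 and 67.8 in Epi-df. HSP23.2, known for a protein of the endoplasmic reticulum, read 32.0, 41.6 and 37.6 in wild type and 49.4, 49.9 and 53.3 in Epi-df. For HSP16.6, next to HSP17.9B in the gene order, the values were 65.0 to 69.6 and 70.9 to 80.9. These 3 of the 5 dim genes had groups that did not overlap, all higher in Epi-df. Over all tested probe sets, which leave the dim ones out, 9.82% had groups apart and higher in Epi-df. Fitted without the filter, the log2 change was 0.54 ± 0.09 for HSP16.0, 0.34 ± 0.09 for HSP23.2 and 0.11 ± 0.08 for HSP16.6 (limma adjusted p = 0.0283, 0.131 and 0.695), none of them 2-fold. HSP17.8 and HSP26.7, the latter known for a plastid protein, had overlapping groups.

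Larger chaperones work with small heat shock proteins in refolding. The names searched gave 6 tested genes, of the BIP, CLPB and Hsp90 kinds, and no other gene matched the names HSP70, HSP60 or DNAJ. None of the 6 was called, against 0.614% of all tested probe sets, and 5 of 6 were higher in Epi-df. The groups stood apart in 4 of them, against 19.6% of all tested probe sets. CLPB1, the cytosolic HSP101 that pulls proteins out of aggregates, read 174.9, 220.9 and 197.2 in wild type. In Epi-df it read 309.4, 285.6 and 272.2, and the groups did not overlap. Its log2 change was 0.52 ± 0.11 (limma adjusted p = 0.0636), the largest of this list. CLPB-M and CLPB-C, known for the mitochondrial and plastid forms, had changes of 0.26 ± 0.07 and 0.18 ± 0.08 (limma adjusted p = 0.115 and 0.387), also with groups apart. Hsp90 had a log2 change of 0.13 ± 0.07 with groups apart, and BIP1, a chaperone gene of the endoplasmic reticulum, one of 0.26 ± 0.16 with groups that overlapped (limma adjusted p = 0.511 and 0.551). Epi-df replicate 3 was the highest array for both, and leaving it out gave 0.07 and 0.09, while BIP1 was at 0.43 when Epi-df replicate 2 was left out.

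Heat shock factors, the transcription factors that switch on these genes in heat, had 0 calls among 19 tested genes, 9 higher and 10 lower, with a median log2 change of -0.01. Their groups stood apart in 3 genes. Over all tested probe sets 0.614% were called and 19.6% had groups apart. HSFA2B, of the A2 group known to drive heat shock genes, read 137.7, 148.9 and 130.2 in wild type. In Epi-df it read 217.7, 212.8 and 227.3. The Epi-df arrays all lay well above the wild type ones. The log2 change was 0.60 ± 0.08 (limma adjusted p = 0.0176), over 1.5-fold and under the 2-fold threshold, and its adjusted p lay between 0.0396 and 0.0937 without single arrays. HSFA9 and HSFA3 were at -0.55 ± 0.18 and -0.68 ± 0.29 (limma adjusted p = 0.194 and 0.346), and their changes were -0.34 when wild type replicate 1 and -0.40 when Epi-df replicate 3 was left out. HSFA2D, of the A2 group too, and HSFC1B had groups that overlapped. They were at 0.08 ± 0.09 and -0.21 ± 0.11, with 0.04 and -0.12 when Epi-df replicate 3 was left out. For HSFA2D the value was 0.15 when Epi-df replicate 1 was left out, and for HSFC1B -0.32 when Epi-df replicate 2 was.

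Enzymes that remove reactive oxygen, another common stress readout, had no call among 12 tested genes and a median log2 change of 0.05. The groups stood apart in 3 of the 12, against 19.6% of all tested probe sets, of which 0.614% were called. The ascorbate peroxidase genes APX2 and APX7 were at 0.22 ± 0.07 and 0.46 ± 0.14 and the catalase gene CAT-A at 0.17 ± 0.06 (limma adjusted p = 0.168, 0.184 and 0.232), with groups apart in these 3. Without single arrays the change of APX7 ran from 0.36 to 0.63.

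A list of genes of other stress states was also measured. Several of its genes were listed with their lower values in these data already known, so their direction is no independent evidence. All 8 tested members were lower in Epi-df, with a median log2 change of -1.01, 3 of them were called (Adh2, DREB1A and JAZ12) and 6 had groups apart. Over all tested probe sets 0.614% were called and 19.6% had groups apart. All 3 calls were lost without wild type replicate 1 (limma adjusted p = 0.157 for Adh2, 0.142 for DREB1A and 0.179 for JAZ12) and without wild type replicate 2, and each one also without at least 1 other array. NAC6 had the lowest adjusted p of this list (0.0189, limma) at a log2 change of -0.79 ± 0.11, under 2-fold. OsWRKY71 and PBZ1 were at -0.87 ± 0.29 and -1.51 ± 0.36 (limma adjusted p = 0.212 and 0.0924), and NAC6, OsWRKY71 and PBZ1 had groups apart. DREB1B and DREB1C had groups that overlapped (limma adjusted p = 0.549 and 0.818). The mean log2 level of that list was 11.24, 10.87 and 10.80 on the wild type arrays and 10.04, 9.59 and 9.90 on the Epi-df arrays. The mean log2 level of the 10 small heat shock genes was 8.80, 8.76 and 8.82 in wild type and 8.94, 8.96 and 8.89 in Epi-df. The part of one list in the values of the other was not tested. In whole seedlings, a change of RNA per cell and a change in the share of tissues cannot be told apart.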

How the data were processed

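Values are the probe set intensities that the authors deposited, on a linear scale, 1 array per sample, with MAS5 named in the submitters' processing notes; its version and scaling target are not given in the sources used here. Of 57381 probe sets 123 are controls and were left out. Groups and replicate numbers come from the sample titles. log2(intensity + 16) was tested with limma 3.58.1 in R 4.3.3 (intensity trend, two-sided, no replicate block) over the 34355 probe sets whose mean reached the 40th percentile. Detection calls were not used. A change on this scale understates that of dim probe sets. ± after a log2 change is the SE, after an intensity the SD.

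Names came from GEO's annotation of the platform, updated through RefSeq genes (ASM3414082v1), by symbol or, where that is a locus number, by a synonym; 22436 probe sets were paired with 1 gene, and all 10 members matched. For other genes the brightest probe set stood for the gene. The text names all members, every other small heat shock gene and the 5 genes nearest to the members' mean profile. From the lists of larger chaperones, heat shock factors and reactive oxygen enzymes it names called genes, up to 3 with the lowest adjusted p and up to 2 with the highest mean. The other heat shock factors of the A2 group are named beside HSFA2B. All tested genes of the list of other stress states are named. NAS1, NAS2, IRT1, Lsi1, OSH1, OSH71, OsPCNA, LHCP, CAB2R, OsrbcS and rca come from the lists of tissue markers and were picked after their values were seen. The members and lists were chosen with earlier results of these data known. The fit was tested on simulated arrays with 34355 probe sets, where 98% of changes of 1.5 and 98.9% of changes of 2.5 (log2) were called, with 3 calls among unchanged probe sets. These changes were planted only in probe sets at or above the median intensity. None was as small as those of the members, so the simulation does not tell how often such small changes are found. Alternatives were other pseudocounts, filters, scalings, spread models, array weights, a replicate block, single arrays left out and other thresholds. Sequences of the genes were not used here.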

Additional observations from a re-analysis of the deposited data

How the results depend on the processing

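None of the 10 members was called under any of the alternatives, the plain two-sample test, Storey's q and the fits without single arrays included. Lower fold thresholds were applied to the main fit only, and every other alternative kept the 2-fold limit. No member changed by more than 0.54 (log2) in absolute size in any fit. The 0 calls at 2-fold were thus fixed by the fold limit, whatever the adjusted p. The median log2 change of the members was 0.13, with a range of 0.13 to 0.19 when single arrays were left out; it was 0.19 without Epi-df replicate 2. It was 0.18 with the filter at the 60th percentile, which leaves out HSP16.9B, and 0.06 without probe sets of the suffixes _s_at and _x_at, which leaves out HSP18.1 and HSP26.2. The 4 genes with changes near 0 changed sign in some fits, with limma adjusted p of 0.665 or more. When single arrays were left out, HSP16.9A lay between -0.10 (Epi-df replicate 3) and 0.21 and was at -0.05 for wild type replicate 3. HSP16.9B lay between -0.13 and 0.14 (Epi-df replicate 3), was at 0.07 for wild type replicate 3, and was at 0.05 with array weights. HSP17.7 lay between -0.04 (Epi-df replicate 1) and 0.13. The change of hsp17.9 lay between -0.10 and 0.04 (wild type replicate 1), with 0.01 and 0.00 for Epi-df replicates 1 and 3. The other 6 members kept their direction in all fits run. Other heat shock and reactive oxygen genes had 0 calls (limma), 1 at 1.5-fold (HSFA2B) and 2 with no fold threshold (HSFA2B and HSP18.8). HSP16.0, dim and tested with no filter only, had a limma adjusted p of 0.0283 there at a change of 0.54, under 2-fold. The count over all probe sets, 211, was 494 at 1.5-fold, 614 with no fold threshold and 10 with the plain two-sample test, and lay between 111 (without wild type replicate 1) and 260 without single arrays; it was 117 without wild type replicate 2. With the replicate number as a block it was 324, the members still had 0 calls and HSP17.9B had a limma adjusted p of 0.0383 at a change of -0.38, under 2-fold. The titles do not say that a replicate number marks a shared batch or day, so the main fit took no pairs. Deviations of same-numbered arrays correlated at 0.129, 0.327 and -0.064. Wild type replicates 1 and 2 were best matched by the Epi-df array of their own number, and wild type replicate 3 by Epi-df replicate 1. Whether the numbers mark pairs cannot be told from these values.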
